A study of Mus musculus with 30 samples.

Results

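Bcl6, Bach2, Pax5, Spib, Ebf1, Ets1, Irf8, Mybl1 and Ikzf3 are 9 transcription factors that set up or maintain the B cell state, of 19937 genes that the arrays measured under a gene symbol of their own. They were chosen as the probe sets that carry these gene symbols, each gene having 1 probe set, and all 9 passed the filter on dim genes in both experiments. Levels came from B cells sorted from the mesenteric lymph nodes of mice on day 10 of infection with the worm Nippostrongylus brasiliensis. All animals, including those that gave the naive cells, were infected CeGFP BALB/c mice with a knock-in of IRES-GFP behind the epsilon heavy chain constant region. The ages of the animals were not given in the sources used here. Each array held RNA of cells pooled from 3 mice in a sort of its own.

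The first experiment had 18 arrays in 6 groups, sorted as germinal centre (GC) cells (B220+ CD95+ CD138-), plasma cells (PC; CD95+ CD138+) or naive cells. There were 3 arrays of IgE GC cells, 3 of GFP-positive IgG1 GC cells and 3 of GFP-negative IgG1 GC cells. There were 4 arrays of IgE PC, 2 of GFP-positive IgG1 PC, and 3 of naive B cells (B220+ CD95- CD138-, without IgG1 or IgE). GFP was carried by IgE cells and by IgG1 cells whose unexpressed heavy chain allele was rearranged to epsilon, so it does not by itself mark the expressed isotype. The second experiment had 12 arrays of IgG1 GC cells, 3 in each of 4 groups: dark zone (DZ; CXCR4 high, CD86 low) and light zone (LZ; CXCR4 low, CD86 high), each GFP-positive and GFP-negative. All values are log2 signals, so that a difference of 1 is a doubling. Levels are compared between groups for 1 gene at a time, never between genes or between experiments.

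Pax5 and Ebf1 specify the B lineage together and keep B cell genes switched on, and Spib and Ets1 are ETS family factors that work in mature B cells. Ikzf3 (Aiolos) is a zinc finger factor of the Ikaros family, and Irf8 binds composite sites with ETS partners. Bcl6 is the repressor that establishes the GC fate, Bach2 is a repressor that holds back plasma cell differentiation, and Mybl1 (A-Myb) is a MYB family factor known from GC cells. Bcl6 and Bach2 both repress Prdm1, which encodes BLIMP1, and BLIMP1 in turn represses Pax5, Bcl6 and Spib when a B cell becomes a plasma cell.

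The labels were checked against marker genes. The mean log2 signal of 6 GC markers was 9.19 to 9.56 on the GC arrays of the first experiment and 4.84 to 5.31 on the naive arrays. The mean of 6 plasma cell markers was 9.73 to 10.77 on PC arrays and 5.57 to 6.08 on naive arrays. On GC arrays it was 7.15 to 7.82 for IgE, 6.75 to 6.88 for GFP-positive IgG1 and 6.92 to 7.08 for GFP-negative IgG1. The IgE GC arrays thus lay above both IgG1 GC groups, though none of the 6 markers was called between them. The part of plasma cells in the IgE GC values was not tested. Cd86 mRNA differed between DZ and LZ cells by -1.10 (SE 0.10), whereas Cxcr4 mRNA was 0.31 (SE 0.11) higher and not called. Array medians lay between 5.28 and 5.47. Arrays correlated with the others of their group at a mean of 0.892 to 0.973. The 3 naive arrays were the lowest of all, at 0.892, 0.909 and 0.910, and the fit used the same spread for every group. The lowest of the GC arrays was GFP-positive IgG1 replicate 3 (0.949). Counts were also computed without naive replicate 1 and this GC array, which keeps the other naive arrays.

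Short stretches of the members' own promoters are shown because they hold letters bound by the factors on either side of this circuit: the core of the BLIMP1 site, the BCL6 site, and the ETS-IRF composite site. Promoters came from RefSeq (build GRCm38.p6), each 300 bases long with 250 before the start of transcription. Of the 9 members, 6 matched an entry, with 9 promoters. Every stretch is 30 bases, read 5′ to 3′ on the gene's strand, and the match is in capitals. Both strands were searched, so a match may read as the reverse complement of the letters named. The first 3 hold the BLIMP1 core GTGAAA, from Pax5 (chr4:44710738-44710767, minus strand), the second of the 2 Ebf1 promoters (chr11:44620068-44620097, plus strand) and the first of the 2 Bcl6 promoters (chr16:23981384-23981413, minus strand).
Pax5: gttccttaatcaTTTCACggtgccttcgga
Ebf1, promoter 2: aaccccgtctcaTTTCACccacggtcacgt
Bcl6, promoter 1: caggagtgttctGTGAAAtccttagagccg
GTGAAA occurs in 12.9% of all 32851 promoters of this length in the table, so a match is common.

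The next 2 hold the BCL6 site TTCNNAGAA, from the second Bcl6 promoter (chr16:23988951-23988980, minus strand) and the first of the 2 Irf8 promoters (chr8:120736195-120736224, plus strand).
Bcl6, promoter 2: agcaaattagTTCTCAGAAttccagaggcc
Irf8, promoter 1: aagagagcgcTTCAGAGAAggcggatttgg
TTCNNAGAA occurs in 5.19% of all promoters. The first Irf8 promoter holds 2 matches, of which 1 is shown, and the first Bcl6 promoter also holds a match, which overlaps its GTGAAA. The last stretch holds the ETS-IRF composite GGAANNGAAA, from Bach2 (chr4:32417405-32417434, plus strand). This promoter, the only Bach2 entry, lies inside the gene (chr4:32238413-32586109) and not at its outermost start.
Bach2: ctaacgaacgggcTTTCCCTTCCggtctag
GGAANNGAAA occurs in 2.72% of all promoters, and the first Bcl6 promoter holds it too, apart from its other matches. The Spib promoter held none of these letters in its 300 bases. A match describes the sequence and shows no binding.

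Entry into the germinal centre was described first, as the difference between GC and naive cells. Mybl1 went from a signal below the median of every naive array to about 11 log2 units in all GC groups, and Bcl6, already well above the median in naive cells, was 2.92- to 3.12-fold higher. The factors of B cell identity were not called in any of the 3 GC groups. Of the 9 members, 2 were called higher in IgE GC cells and the same 2, Mybl1 and Bcl6, in GFP-positive IgG1 GC cells. In GFP-negative IgG1 GC cells 3 were called higher, with Irf8 added. Called here means past an adjusted p of 0.05 in limma, with the adjustment over all 12098 genes tested. Of these, 19.3%, 16.8% and 20.5% were called higher in the 3 comparisons. No member was called lower in the IgE or the GFP-positive IgG1 cells, against 7.4% and 6.43% of all genes. The 3 comparisons share the naive arrays, so they are not separate evidence.

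Mybl1 was at 4.98, 4.52 and 4.23 on the naive arrays and at 11.02, 11.13 and 11.02 on the IgE GC arrays. On the GFP-positive IgG1 GC arrays it was at 11.05, 10.92 and 10.93, and on the GFP-negative ones at 11.01, 11.12 and 11.28. The groups lay far apart, and every naive value was below the median of its array. The IgE GC cells were higher by 6.48 (SE 0.27; adjusted p = 4.28e-11 in limma), the largest absolute difference among the 12098 genes tested, or 89.4-fold. The IgG1 differences were 6.39 with GFP and 6.56 without. A signal near the floor of an array understates a fold change, and the naive signal of Mybl1 lay there.

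Bcl6 was at 8.83, 9.73 and 9.62 on the naive arrays and at 10.96, 10.91 and 10.94 on the IgE GC arrays. The IgG1 GC arrays read 11.11, 10.96 and 11.01 when GFP-positive and 11.17, 10.88 and 11.04 when GFP-negative. All 9 GC values lay above all 3 naive values, and the lowest naive value was that of replicate 1. The differences were 1.55 (SE 0.38; adjusted p = 0.00641 in limma), 1.64 (adjusted p = 0.0048) and 1.64 (adjusted p = 0.00446). Leaving out naive replicate 1 and GFP-positive IgG1 GC replicate 3 together, they were 1.27 (adjusted p = 0.0419), 1.36 (adjusted p = 0.04995) and 1.36 (adjusted p = 0.0299).

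Bach2 was at 8.36, 9.04 and 8.32 on the naive arrays and at 9.40, 9.34 and 9.52 on the IgE GC arrays, which do not overlap. The difference was 0.85 (SE 0.34; 95% interval 0.13 to 1.57) and was not called (adjusted p = 0.0753 in limma). The values of 0.65 in the GFP-positive and 0.82 in the GFP-negative IgG1 cells were not called either. Without naive replicate 2, the brightest naive array for Bach2, the IgE GC difference was 1.08 and the GFP-negative one 1.05, both called (adjusted p = 0.035 and adjusted p = 0.0355). The IgE GC difference was also called with only these groups in the fit (adjusted p = 0.0471).

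Irf8 was at 9.54, 10.15 and 9.37 on the naive arrays and at 10.21, 10.45 and 10.40 on the GFP-negative IgG1 GC arrays. The difference of 0.66 (SE 0.24) was called narrowly (adjusted p = 0.0441 in limma), and the call was lost without naive replicate 1, naive replicate 3 or any of the GFP-negative arrays. It was also lost after quantile normalization was applied again (0.36, adjusted p = 0.253) and with only these groups in the fit (adjusted p = 0.0955). In IgE GC and GFP-positive IgG1 GC cells the differences were 0.48 and 0.58 (adjusted p = 0.139 and adjusted p = 0.0876), and both were called without naive replicate 2 (0.71 and 0.81). So all 3 GC groups read higher than naive, with calls that hang on single arrays.

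Pax5, Spib, Ebf1, Ets1 and Ikzf3, the factors of B cell identity, were bright in naive and GC cells alike, with no called difference at 3 arrays a group. Pax5 was at 10.91, 11.65 and 11.48 in naive and at 11.22, 11.08 and 11.04 in IgE GC cells, a difference of -0.24 (95% interval -1.0 to 0.52). Spib differed by 0.11 (-0.54 to 0.75), Ets1 by 0.06 (-0.39 to 0.52) and Ikzf3 by -0.16 (-0.67 to 0.36). The lower ends of these 4 intervals lie between -1.0 and -0.39, and the upper ends between 0.36 and 0.75. Changes up to those sizes are therefore allowed. Ebf1 was at 10.19, 10.26 and 10.06 in naive and at 9.83, 10.07 and 9.62 in IgE GC cells. Its differences of -0.33, -0.41 and -0.24 in IgE, GFP-positive IgG1 and GFP-negative IgG1 GC cells were not called. Their 95% intervals were -0.74 to 0.07, -0.82 to -0.007 and -0.65 to 0.17. Both IgG1 GC groups lay below every naive value of Ebf1, without overlap. After quantile normalization was applied again they were -0.71, -0.72 and -0.61 and called.

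Markers of macrophages and dendritic cells, of which some also express Irf8 or Spib, were somewhat brighter on the naive arrays: the mean of 11 markers was 5.32 to 5.67 there and 4.86 to 5.11 on the GC arrays. Of the 7 that were tested, Tyrobp, Siglech and Fcer1g were called lower in every GC group than in naive cells. Zbtb46 was also called lower in GFP-negative IgG1 GC cells, and Flt3 was called higher in every GC group. Over all genes 7.4%, 6.43% and 9.35% were called lower in IgE, GFP-positive IgG1 and GFP-negative IgG1 GC cells. Clec9a, Csf1r, Itgax, Lyz2 and Xcr1 were above the median on no naive array. The part of such cells in the naive values was not tested. In sorted pools, fewer cells that express a gene and less RNA in each cannot be told apart.

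**Figure D1:**
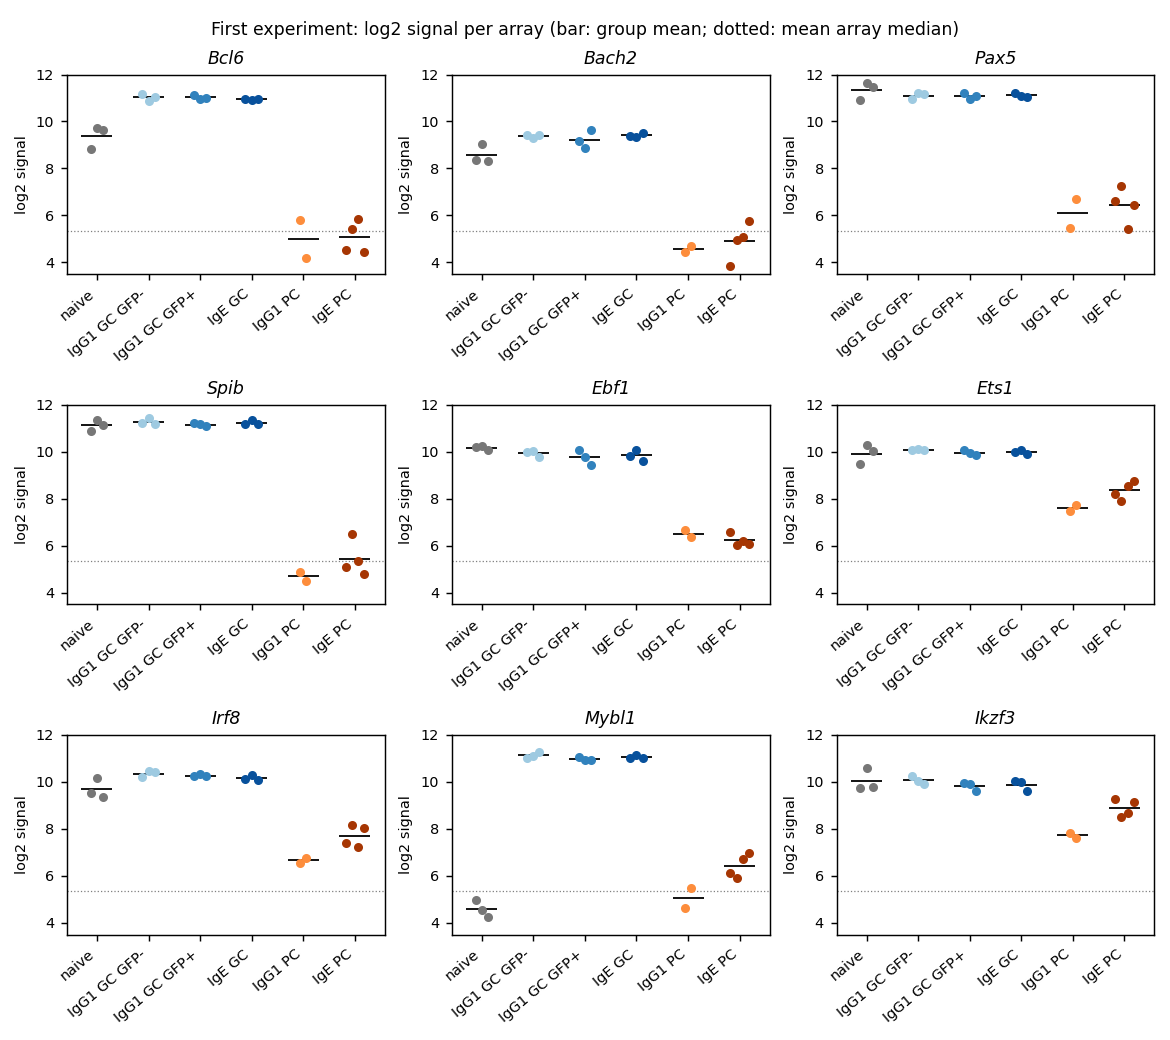
Log2 signal of each of the 9 members (1 panel a gene) on every array of the first experiment, by group; points are arrays, bars are group means and the dotted line is the mean array median. Mybl1 is high in the GC groups only, whereas the other 8 are high in naive and GC cells and lower in both PC groups.

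The plasma cell fate was described as the difference between PC and GC cells of the same isotype. A fall or rise here means a lower or higher level in PC. Whether these PC arose from such GC cells was not tested. All 9 members fell in IgE PC against IgE GC cells, and all 9 fell in IgG1 PC against GFP-positive IgG1 GC cells. Among all genes tested, 13.4% and 13.1% were called lower in these comparisons. The median difference of the 9 was -4.51 and -4.67, beside -0.03 and -0.01 over all genes. Bcl6 had the largest absolute difference of all 12098 genes in the IgE comparison and Spib in the IgG1 comparison. The fall was not even: it was deepest for Bcl6, Spib, Pax5, Bach2 and Mybl1, and shallowest for Ets1 and Ikzf3. The comparisons share no array.

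Among the identity factors, Spib fell from 11.17, 11.36 and 11.17 in IgE GC cells to 5.08, 6.52, 5.34 and 4.79 in IgE PC. The difference was -5.81 (SE 0.28; adjusted p = 5.22e-10 in limma), or 55.9-fold. In IgG1 PC it read 4.89 and 4.51, below the array median on both, and the difference was -6.45 (SE 0.34), or 87.7-fold. No PC array came within 4 log2 units of a GC array.

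Pax5 fell from 11.22, 11.08 and 11.04 in IgE GC cells to 6.62, 7.25, 5.43 and 6.43 in IgE PC, a difference of -4.68 (SE 0.34; adjusted p = 2.71e-08 in limma). In IgG1 PC it was at 5.49 and 6.70, a difference of -5.00 (SE 0.40) from GFP-positive IgG1 GC cells. All 6 PC values stayed above their array medians. Ebf1, the partner of Pax5, fell from 9.83, 10.07 and 9.62 to 6.57, 6.02, 6.22 and 6.08 in the IgE cells (-3.62, SE 0.18). In IgG1 PC it was at 6.68 and 6.36 (-3.24, SE 0.22), and it too stayed above the median on all 6 PC arrays.

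Ets1 and Ikzf3 kept the most signal. Ets1 was at 9.99, 10.07 and 9.89 in IgE GC cells and at 8.20, 7.92, 8.55 and 8.76 in IgE PC, a difference of -1.63 (SE 0.20; adjusted p = 1.17e-05 in limma). In IgG1 PC it was at 7.46 and 7.74, a difference of -2.35 (SE 0.24). Ikzf3 was at 10.02, 9.98 and 9.62 in IgE GC cells and at 9.26, 8.51, 8.69 and 9.14 in IgE PC. That difference of -0.97 (SE 0.23; adjusted p = 0.00411 in limma), a factor of 1.96, was the smallest of the 9. In IgG1 PC Ikzf3 was at 7.84 and 7.60, a difference of -2.11 (SE 0.27). Even for these genes no PC value reached a GC value of the same isotype.

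Of the GC repressors, Bcl6 fell to 4.53, 5.43, 5.86 and 4.44 in IgE PC and to 5.79 and 4.17 in IgG1 PC. The differences were -5.87 (SE 0.36; adjusted p = 5.37e-09 in limma) and -6.05 (SE 0.43; adjusted p = 3.6e-08), or 58.6-fold and 66.3-fold. Both PC groups lay far below the naive arrays as well, with differences of -4.32 and -4.41. Bach2 fell to 3.86, 4.94, 5.09 and 5.75 in IgE PC and to 4.43 and 4.68 in IgG1 PC. Its differences were -4.51 (SE 0.32) and -4.67 (SE 0.38), and 5 of the 6 PC values were below the median of their array. Values of these genes at the floor understate the fall, and they scatter more than those of bright genes.

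Irf8 fell to 7.41, 8.15, 7.21 and 8.05 in IgE PC (-2.47, SE 0.22) and to 6.56 and 6.75 in IgG1 PC (-3.61, SE 0.26). Mybl1 fell to 6.10, 5.89, 6.73 and 6.97 in IgE PC (-4.63, SE 0.25) and to 4.64 and 5.50 in IgG1 PC (-5.89, SE 0.30). In IgG1 PC it thereby overlapped the naive values, and in IgE PC it did not.

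Against naive cells, 8 of the 9 members were lower in each PC group, and Mybl1 was the exception. Over all genes 14.1% were called lower in IgE PC and 12.2% in IgG1 PC. Mybl1 was higher in IgE PC than in naive cells by 1.85 (SE 0.25; adjusted p = 1.97e-05 in limma), and above the array median on 4 of 4 arrays. In IgG1 PC the value was 0.50 (SE 0.30) and not called. Over all genes 23% and 17.1% were called higher. Across the 6 groups, Mybl1 therefore ran from GC cells to IgE PC, with no overlap between these, and on to IgG1 PC and naive cells, which overlapped. For Bcl6 the 3 GC groups overlapped each other, naive cells came next without overlap, and the PC groups overlapped each other at the bottom.

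T cells also express Ets1, Ikzf3 and Bach2. Of 6 T cell markers tested, Cd28 (4.31 and 5.38) and Thy1 (2.05 and 2.14) were higher in PC than in GC cells in the IgE and IgG1 comparisons, and none of the other 4 was called. The mean of 7 markers on the array was 6.31 to 6.90 in IgG1 PC and 6.20 to 6.42 in IgE PC, beside 5.27 to 5.87 in IgE GC cells and 5.15 to 5.40 in GFP-positive IgG1 GC cells. Cd3g and Cd4 were above the median on no PC array of either isotype, nor were Cd3d and Cd8a on any IgE PC array. The part of T cells in the residual Ets1 and Ikzf3 signal was not tested. The mean of 4 B cell markers was 9.20 to 9.82 in the PC groups and 11.48 to 11.94 in all others.

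**Figure D2:**
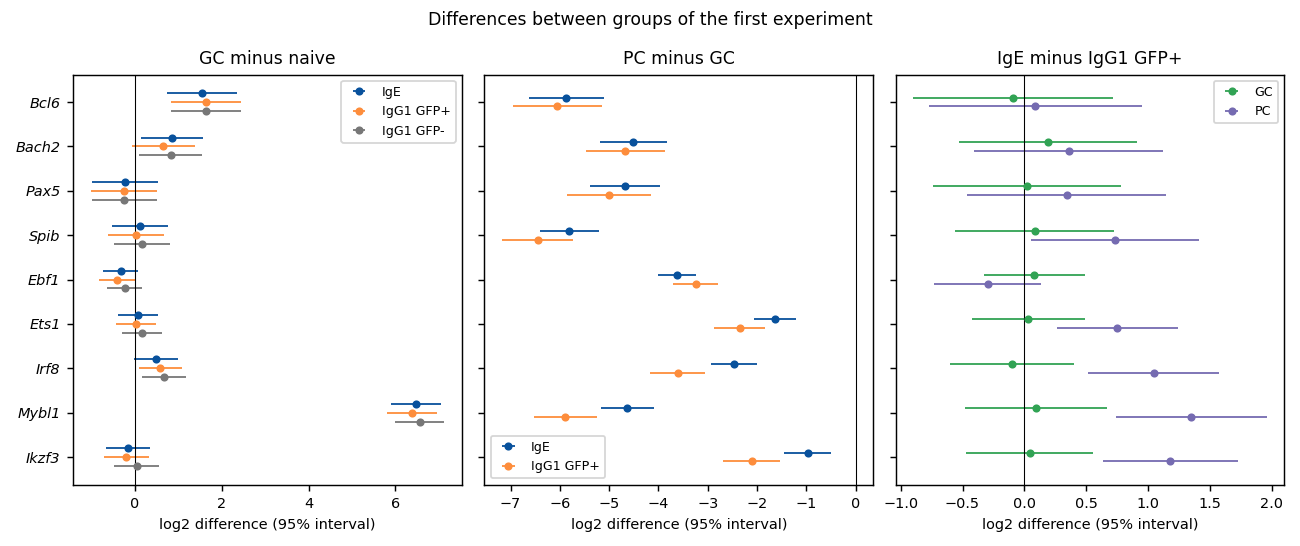
Log2 difference with its 95% interval for the 9 members in comparisons of the first experiment; colours are comparisons and the vertical line is 0. Every PC minus GC interval lies below 0, from -0.97 for Ikzf3 in IgE cells to -6.45 for Spib in IgG1 cells, whereas Mybl1 and Bcl6 stand to the right of 0 in the GC comparisons with naive cells.

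The other factors of the B lineage did not fall as a block. Of 30 listed, 27 were tested, and 12 fell and 4 rose in IgE PC against IgE GC cells, where 10.2% of all genes were called higher. In the IgG1 comparison 10 fell and 4 rose, where 8.32% of all genes were called higher. Those that fell included Rel, an NF-kB subunit (-3.59 and -4.93), Bcl11a, a zinc finger factor of lymphoid development (-3.36 and -4.16), and Id3, an inhibitor of E proteins (-3.83 and -3.74). Irf4, the factor that with Prdm1 drives plasma cell differentiation, rose by 3.67 and 4.24. Arid3a rose by 1.77 and 1.27. The median of the 27 was -0.27 and -0.44, much nearer to that of all genes than the median of the 9 members. Both sets were chosen with earlier results of these data known, and the 27 include Irf4. The contrast between the sets therefore describes how they were picked as well.

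Of 18 tested genes that PAX5 and EBF1 are known to activate, 13 fell and none rose in IgE PC against IgE GC cells (median -1.66), and 12 fell and none rose in the IgG1 comparison (median -2.24). The deepest were Cd22, an inhibitory coreceptor (-4.68 and -5.20), Cd72, another inhibitory receptor (-4.29 and -4.85), the scaffold gene Bank1 (-4.34 and -4.65) and Cr2, the complement receptor CD21 (-4.29 and -4.86). Cd55, Cplx2, Ralgps2, Blnk and Fcrla were called in neither comparison.

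Of 12 tested genes that BCL6 is known to repress, 5 rose and none fell in IgE PC against IgE GC cells (median 0.61), and 7 rose and none fell in the IgG1 comparison (median 1.22). Prdm1 was at 4.85 ± 0.13 (SD, n = 3) in naive cells and at 5.53 ± 0.89 (n = 3) in IgE GC cells. It reached 9.87 ± 0.10 (n = 4) in IgE PC and 9.59 ± 0.03 (n = 2) in IgG1 PC, differences of 4.35 (SE 0.29) and 4.74 (SE 0.35) from the GC cells. Ccnd2 (cyclin D2) rose by 2.59 and 3.55, and Cdkn1b (the cell cycle inhibitor p27) by 2.21 and 2.59. Of 7 plasma cell factors, 6 rose in both comparisons, led by Creb3l2, a factor of the secretory pathway, at 4.63 and 5.00. Prdm1 and Irf4 are on this list and on the BCL6-repressed list, and Irf4 is also among the other B lineage factors, so these counts overlap. Zbtb20 fell by 1.02 in the IgE comparison (adjusted p = 0.0378 in limma), was at -0.66 and not called in the IgG1 comparison, and the difference between these was not called (-0.36, adjusted p = 0.983).

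Of 8 tested corepressors with which BCL6 works, the same 4, Mta3, Rcor1, Sin3a and Tbl1xr1, fell in both comparisons and none rose. The values were -3.23 and -3.67 for Mta3 and -1.41 and -1.29 for Rcor1. Against naive cells, 5 of the 8 were higher in IgE GC cells and 5 in GFP-positive IgG1 GC cells, and none was lower. Rcor1 was higher by 1.12 and 0.75 and Hdac3 by 1.03 and 0.88.

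In the same comparisons with naive cells the BCL6-repressed list was mixed. In IgE GC cells 7 of 12 were lower and 3 higher, and in GFP-positive IgG1 GC cells 6 were lower and 2 higher. The migration receptors S1pr1 (-2.85 and -3.43) and Gpr183 (-1.77 and -2.03), the survival gene Bcl2 (-2.60 and -2.81) and Cdkn1b (-2.19 and -2.29) were lower. Chek1, a checkpoint kinase of dividing cells, was higher by 3.18 and 3.15 although it is on that list. Of the other B lineage factors, 6 were higher and 8 lower in both comparisons. Myb, a relative of Mybl1, was higher by 1.39 and 1.18, and Zfp318, known for its part in IgD expression, was lower (-4.16 and -4.22). Among 18 PAX5- and EBF1-activated genes, 5 were lower and 1 higher in IgE GC cells and 7 lower and 1 higher in GFP-positive IgG1 GC cells. Cd55, which restrains complement, was lower (-4.51 and -4.66), and Vpreb3 was higher by 0.86 and 0.66.

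**Figure D3:**
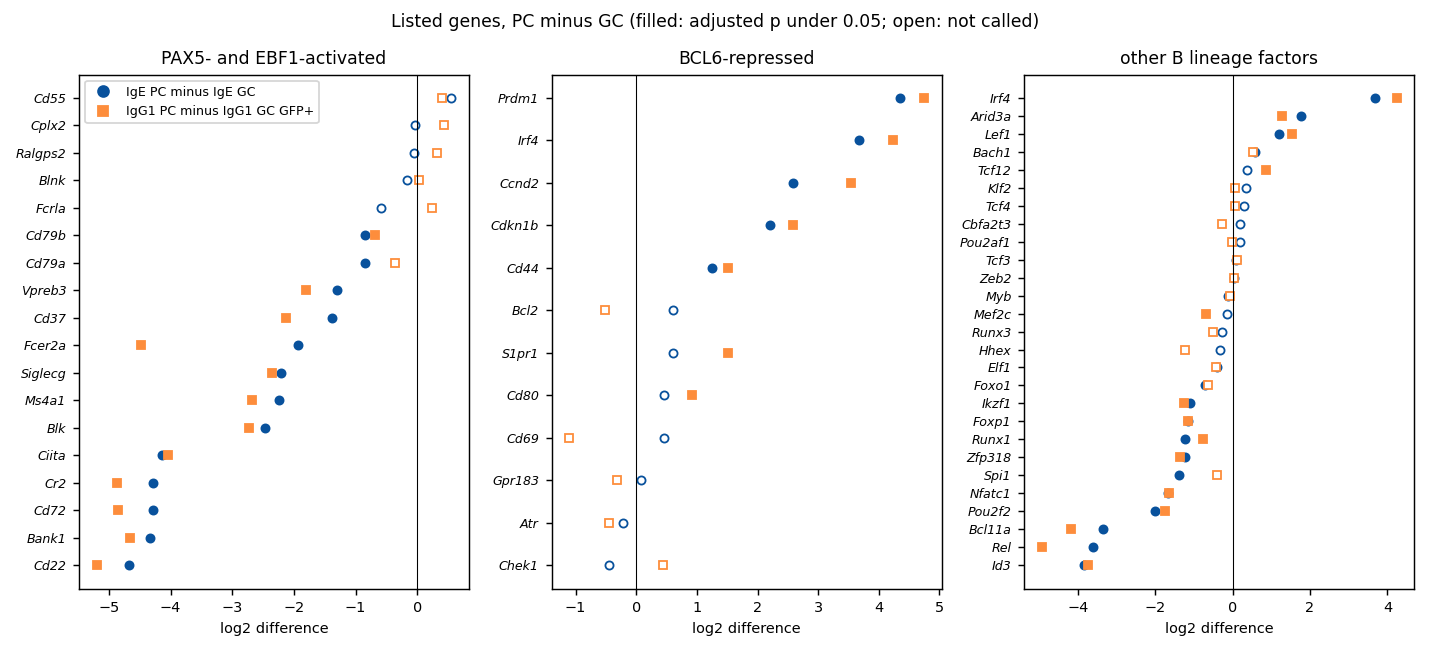
Log2 difference PC minus GC for each tested gene of 3 lists (PAX5- and EBF1-activated, BCL6-repressed, other B lineage factors); circles are IgE, squares IgG1, and filled symbols have an adjusted p under 0.05. The activated list runs down to -4.68 and -5.20 at Cd22, while in the repressed list the filled symbols are all above 0, up to 4.35 and 4.74 at Prdm1.

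The isotypes were compared next. Among plasma cells, Mybl1 and Ikzf3 were higher in IgE PC than in IgG1 PC, with Irf8 and Ets1 separated between the groups but not called. Bcl6, Bach2, Pax5, Spib and Ebf1 were not called and their groups overlapped. How many of all genes lay apart between the 4 IgE and 2 IgG1 arrays was not counted, so separation alone shows little. The 2 called are 2 of 9 members, where 0.785% of all genes were called higher. Of the 9, 5 had an unadjusted p under 0.05, all of them higher in IgE PC, against 13% of all genes in either direction. The IgG1 PC group has 2 arrays, which limits every value here.

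Mybl1 was at 6.10, 5.89, 6.73 and 6.97 in IgE PC and at 4.64 and 5.50 in IgG1 PC. The difference was 1.35 (SE 0.29; 95% interval 0.74 to 1.96; adjusted p = 0.0348 in limma), or 2.55-fold. Ikzf3 was at 9.26, 8.51, 8.69 and 9.14 in IgE PC and at 7.84 and 7.60 in IgG1 PC. The difference was 1.18 (SE 0.26; 95% interval 0.64 to 1.72; adjusted p = 0.039 in limma), or 2.27-fold. In both genes every IgE array was above both IgG1 arrays.

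Neither call was firm. With only the PC groups in the fit, the adjusted p was 0.28 for Mybl1 and 0.206 for Ikzf3. After quantile normalization was applied again, Ikzf3 was not called (adjusted p = 0.0675). Leaving out IgG1 PC replicate 1 gave 0.92 (adjusted p = 0.194) for Mybl1 and adjusted p = 0.059 for Ikzf3, and leaving out IgG1 PC replicate 2 gave adjusted p = 0.217 for Ikzf3. Both calls were also lost without IgE PC replicate 4 (adjusted p = 0.0706 and adjusted p = 0.0844). That of Mybl1 was lost without IgE PC replicate 3 (adjusted p = 0.0726) and that of Ikzf3 without IgE PC replicate 1 (adjusted p = 0.0789). All of these values stayed above 0.

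Irf8 was at 7.41, 8.15, 7.21 and 8.05 in IgE PC and at 6.56 and 6.75 in IgG1 PC, a difference of 1.05 (SE 0.25; adjusted p = 0.0588 in limma). Without IgE PC replicate 3 it was 1.21 and called (adjusted p = 0.0271). Ets1 was at 8.20, 7.92, 8.55 and 8.76 against 7.46 and 7.74, a difference of 0.75 (SE 0.23; adjusted p = 0.146 in limma). Spib was 0.73 higher (adjusted p = 0.344), with its lowest IgE value of 4.79 inside the IgG1 range. For Bcl6 the difference was 0.09 (95% interval -0.77 to 0.95), for Pax5 0.34 (-0.46 to 1.15) and for Bach2 0.36 (-0.41 to 1.12). For Ebf1 it was -0.30 (-0.73 to 0.14). Single arrays set the sign of some of these: without IgG1 PC replicate 1 the value was 0.90 for Bcl6 and -0.26 for Pax5, and without IgG1 PC replicate 2 it was -0.72 and 0.95. Without IgE PC replicate 2 it was -0.03 for Bcl6, 0.07 for Pax5 and 0.37 for Spib, and without IgE PC replicate 3 it was -0.17 for Bcl6 and 0.68 for Pax5. The intervals for Bcl6, Pax5 and Bach2 hold a doubling or nearly so.

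Of the GC markers, Gcsam also differed between the PC groups. The mean of 6 GC markers was 7.51 to 7.75 in IgE PC and 6.98 to 7.21 in IgG1 PC. Gcsam, a signalling adaptor of GC cells, was at 8.35 ± 0.23 (SD, n = 4) in IgE PC and at 5.86 ± 0.52 (n = 2) in IgG1 PC, and was the 1 marker of the 6 that was called (2.48, adjusted p = 3.42e-05 in limma). Rgs13 was not above the median on any PC array, at means of 4.38 and 3.67. Fas (0.77), Mki67 (0.06), Nuggc (-0.13) and S1pr2 (-0.72) were not called. The part of GC cells or of cells on the way from GC to PC in the Mybl1 and Ikzf3 values was not tested. The mean of the T cell markers was 6.20 to 6.42 in IgE PC and 6.31 to 6.90 in IgG1 PC. The part of T cells in the Mybl1 and Ikzf3 values was not tested either.

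Outside the members, Rel was the 1 of 27 other B lineage factors that was called, at 6.41 in IgE PC and 5.18 in IgG1 PC (1.22, SE 0.24; adjusted p = 0.0192 in limma). Of 18 PAX5- and EBF1-activated genes Fcer2a, which encodes the low-affinity IgE receptor CD23, was the 1 called, at 9.22 and 6.68 (2.55, SE 0.36; adjusted p = 0.00161 in limma). None of the 7 plasma cell factors, the 12 BCL6-repressed genes or the 8 corepressors was called. Prdm1 differed by 0.29 and Irf4 by 0.09.

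Whether the fall from GC to PC differed between isotypes was tested as an interaction. No member was called, against 0.0909% of all genes, and 4 members had an unadjusted p under 0.05, against 6.79% of all genes. The values were 1.26 for Mybl1 (SE 0.40; adjusted p = 0.478 in limma), 1.14 for Irf8 (adjusted p = 0.457), 1.14 for Ikzf3 (adjusted p = 0.473) and 0.72 for Ets1 (adjusted p = 0.686). So a shallower fall in IgE cells was measured for these 4, but it was not established by the test across all genes.

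Among GC cells no member gave a called difference by isotype or by GFP. The largest absolute value between IgE GC and GFP-positive IgG1 GC cells was 0.19, for Bach2 (95% interval -0.53 to 0.91). Between IgE GC and GFP-negative IgG1 GC cells it was -0.20, for Ikzf3 (-0.71 to 0.32). Between IgG1 GC cells with and without GFP it was -0.24, also for Ikzf3 (-0.75 to 0.27). No member was called by limma in any of these comparisons, and 0 of 9 had an unadjusted p under 0.05. Over all genes, 0% were called in each of the 3, and 2.18%, 1.69% and 2.19% had an unadjusted p under 0.05. The groups overlapped for every member, with the exception of Ets1, whose GFP-positive arrays (10.06, 9.96 and 9.84) sat just under the GFP-negative ones (10.07, 10.13 and 10.06). These comparisons share arrays with each other. The interval for Bcl6 between IgE and GFP-positive IgG1 GC cells was -0.90 to 0.72, from a spread shared by all 6 groups. The SD of Bcl6 was 0.03 and 0.07 in these 2 GC groups. It was 0.49 in naive cells, 0.69 in IgE PC and 1.15 in IgG1 PC. The width of this interval therefore does not measure the scatter of the GC arrays alone.

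The zones of the germinal centre were compared in the second experiment. DZ cells proliferate and mutate their antibody genes, and LZ cells test the product against antigen and T cell help. The 9 members were close to level between the zones: none was called in DZ against LZ cells, where 6.91% of all 11050 genes tested were called. With 6 arrays a side, 1 of the 9 had an unadjusted p under 0.05, against 21.7% of all genes. The median difference of the 9 was 0.07, beside 0.00 over all genes.

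Irf8 was the member with the largest value. It was at 10.05, 10.35 and 9.92 in GFP-positive DZ cells and at 10.40, 10.39 and 10.03 in GFP-positive LZ cells. In GFP-negative cells it was at 10.06, 9.97 and 10.08 in the DZ and at 11.01, 10.36 and 10.27 in the LZ. The difference over both was -0.34 (SE 0.14; adjusted p = 0.177 in limma), and -0.51 (SE 0.20; adjusted p = 0.206) in GFP-negative cells, whose groups did not overlap. Without GFP-negative LZ replicate 1, the array at 11.01, these values were -0.23 and -0.28.

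Ebf1 was at 9.74, 9.69 and 9.76 in GFP-positive DZ cells and at 10.08, 10.08 and 10.10 in GFP-positive LZ cells, which do not overlap. The difference was -0.36 (SE 0.16; adjusted p = 0.38 in limma). In GFP-negative cells the DZ arrays (9.85, 10.40 and 10.07) and LZ arrays (10.32, 10.31 and 9.88) overlapped, and the difference was -0.06. Within GFP-positive cells 1.22% of all genes were called between the zones, and within GFP-negative cells 2.59%. No member was called in either.

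The GC repressors were not called between the zones. Bcl6 was at 11.03 ± 0.12 (SD, n = 6) in DZ and at 10.87 ± 0.17 (n = 6) in LZ cells (0.15, 95% interval -0.07 to 0.37). Bach2 was at 9.30 ± 0.21 and 9.08 ± 0.15 (0.22, -0.03 to 0.47). Spib (0.20), Ets1 (0.19), Mybl1 (0.07) and Ikzf3 (-0.16) were not called either. Within GFP-negative cells the DZ and LZ arrays of Bach2 (0.29), Spib (0.24), Ets1 (0.20) and Ikzf3 (-0.15) did not overlap. How many of all genes separate in this way was not counted. Pax5 was the most level, at 11.11 ± 0.08 and 11.12 ± 0.15 (n = 6 each; -0.01, 95% interval -0.21 to 0.20). The intervals for all 9 lie within 0.65 of 0, so a doubling between zones is outside each of them.

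GFP made no called difference within the zones, for any member or any of the 11050 genes (0%). The largest value was -0.23 for Ebf1 (adjusted p = 0.941 in limma). The interaction of zone and GFP called 0% of all genes as well, and the largest member values were 0.34 for Irf8, -0.29 for Ebf1 and -0.27 for Bcl6. For the members, 0 of 9 had an unadjusted p under 0.05 in either test by limma, against 4.7% and 4.91% of all genes.

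**Figure D4:**
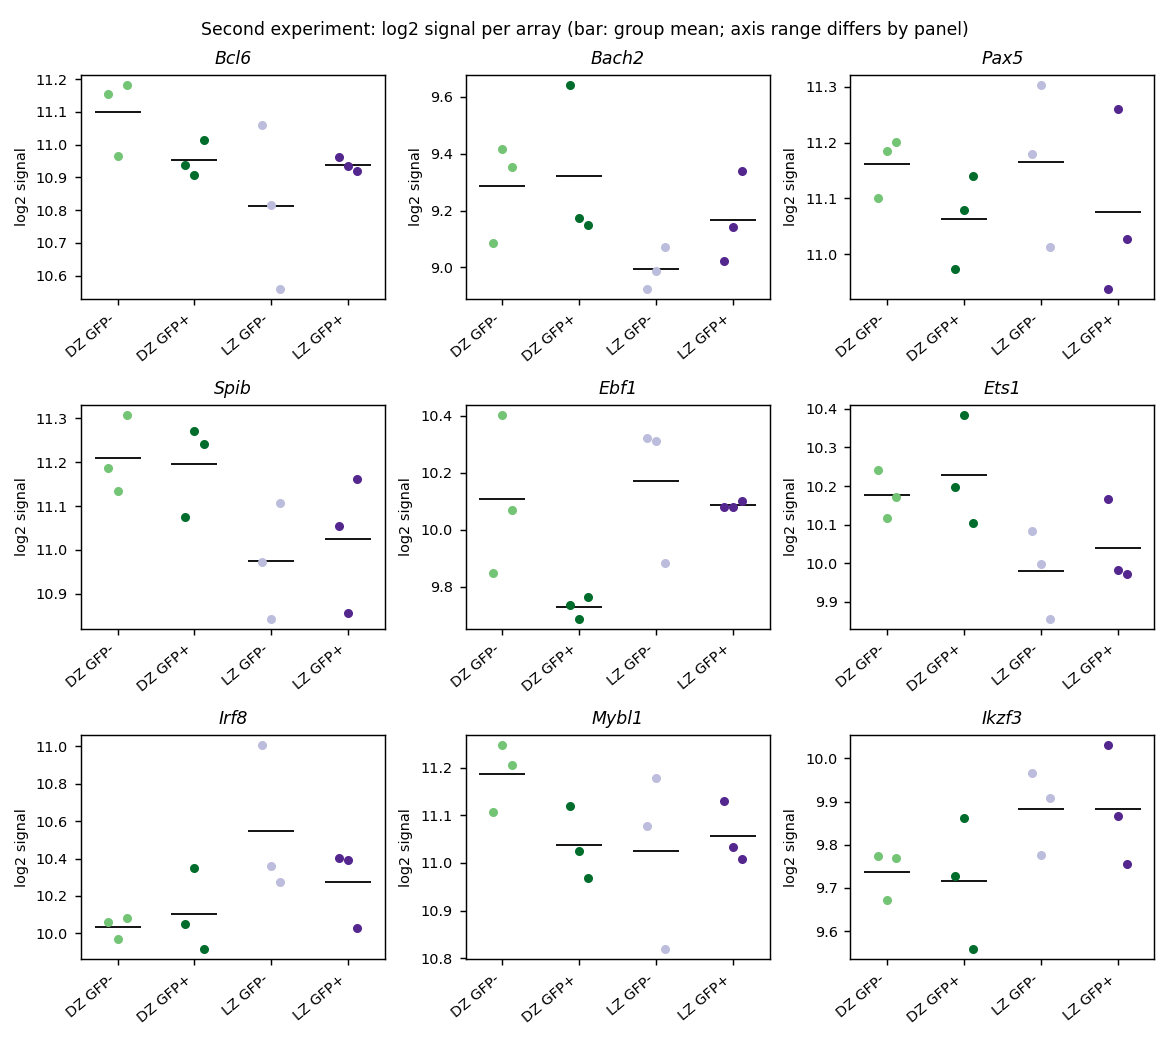
Log2 signal of each member (1 panel a gene) on the 12 arrays of the second experiment, by zone and GFP; points are arrays, bars are group means, and the axis range differs by panel. Among GFP-positive cells only Ebf1 separates the zones (9.73 and 10.09). Among GFP-negative cells Bach2, Spib, Ets1, Irf8 and Ikzf3 separate them, and Irf8 shows 1 LZ array well above the rest, at 11.01.

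Other genes of the circuit did differ between the zones. Of the 27 other B lineage factors tested, 3 were higher in DZ cells and 6 lower, where 3.92% and 3% of all genes were called higher and lower. Tcf3, which encodes the E protein E2A, was 0.49 higher and Pou2af1, a coactivator of octamer factors, 0.41 higher. Zfp318 was lower in DZ cells (-1.90, SE 0.21; adjusted p = 0.000345 in limma), Irf4 stood at -1.28 (SE 0.26) and Hhex at -1.26 (SE 0.22). Of 18 PAX5- and EBF1-activated genes, 6 were lower in DZ cells, among them Cr2 (-0.99), Cd72 (-0.98) and Fcer2a (-0.96), and Cd55 was 1.10 higher. Of 11 BCL6-repressed genes tested there, 5 were lower in DZ cells, among them Cd69, an activation marker, at -1.29 and Gpr183 at -1.04, and none was higher. Of the 8 corepressors, Rcor1 was 0.60 higher in DZ cells and Bcor stood at -0.66.

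The genes whose log2 signal followed each member most closely were found by Pearson correlation over the 18 arrays of the first experiment, as a description. The arrays share the differences between the 6 groups, so the points behind a correlation are not independent. Pax5 was followed by Rasgrp1 (0.994), Cxcr5 (0.993) and Cd22 (0.990), and Spib by Cd22 (0.990), Cd83 (0.989) and Cd180 (0.987). Ebf1 was followed by Marchf1 (0.992), Cxcr5 (0.986) and Dnah8 (0.985). Bcl6 was closest to Usp25 (0.986), Vps13a (0.983) and Ccdc50 (0.982), and Bach2 to Myo1e (0.985), Smim14 (0.982) and Lrmp (0.978). Ets1 was closest to Arhgdib (0.982), Smim14 (0.977) and Bcl11a (0.974), and Irf8 to Lyst (0.985), Jak2 (0.985) and Lrmp (0.979). For Mybl1 the closest were Rassf6 (0.979), Mtmr14 (0.974) and Hnrnpu (0.971). Ikzf3 had the least close, with Fchsd2 (0.962), Pde7a (0.961) and Tasor (0.947).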

How the data were processed

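Deposited values were on the log2 scale; the submitters' processing notes name RMA (robust multi-array averaging) and R 2.15.2. Per the labels' protocols, 2 ng of RNA was amplified and 5 ug of cDNA labelled. RMA equalizes the distributions of arrays, so a change in the total RNA of a cell is not seen. The sources used here do not say whether the experiments were normalized together. Of 34760 probe sets, 21640 had 1 gene symbol, 1321 several and 11799 none; the brightest probe set stood for each of 19937 genes. Genes above the array median on at least 2 arrays (first experiment) or 3 arrays (second) were tested, 12098 and 11050. Each experiment was fitted apart in limma 3.58.1 (R 4.3.3; lmFit, eBayes, 1 term a group), with Benjamini-Hochberg adjustment over all genes tested and calls at 0.05, in 17 comparisons, 2 of them interactions. On simulated data, 54% of genes changed by 1 log2 unit and 90% of those changed by 2 were recovered for IgE GC against naive cells, and 88% and 100% for the zones. There were 2 and 11 false calls. The simulation changed few genes and gave each gene the same spread in all groups. In the data many genes differed from naive cells and the naive arrays scattered more, so these rates do not carry over to the real comparisons.

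Members and gene lists were chosen with earlier results of these data known; the zone sort markers were added last. All 9 members were named in every comparison, with up to 4 called genes of the largest difference per list and 3 correlated genes per member; other genes were named after their values were seen. Replicate numbers were taken to pair samples where all same-numbered arrays correlated above 0.1 in their deviations from group means. Only IgG1 GC cells with and without GFP met this, with 3 pairs at 0.109 to 0.154. IgE GC and GFP-negative IgG1 GC cells came close, at 0.095 to 0.140. The cut-off does not show that the other groups were unpaired. Nothing beyond separate sorts of pooled mice is stated about the replicates, and 2 to 4 arrays a group limit the precision. Plots used matplotlib 3.10.9 (python 3.11.15).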

Additional observations from a re-analysis of the deposited data

How the results depend on the processing

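Alternatives were other filters on dim genes, the mean of all probe sets, quantile normalization again, moderation with trend and robust fitting, a fit of the compared groups alone, the replicate block, the arrays that stood apart left out, and each array left out in turn. No member reversed a called direction, and the counts called for PC against GC and PC against naive cells did not change. For IgE GC against naive cells, leaving out single arrays gave 2 to 4 members called. For IgE PC against IgG1 PC, 1 member was called after quantile normalization again, 0 with the compared groups alone, 0 with the replicate block, and 0 to 2 with single arrays left out. With the replicate block, Bach2 became called in IgE GC (adjusted p = 0.0372 in limma) and GFP-negative IgG1 GC cells against naive cells, and Irf8 in GFP-positive ones. The paired fit of IgG1 GC cells with and without GFP called 0 members. The cause of these shifts was not tested. Of member results under alternatives, 20 lost a call, 12 gained one and 36 that were not called moved by more than their error. The other 2218 neither lost nor gained a call. Among them, called results were not checked for moves by more than their error. Signals near the array median, as in PC for Bcl6, Bach2 and Spib, limit the size of a fold.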
